A study of Gallus gallus with 4 samples.

Results

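Calpain 3 and 3 genes of autophagy, CAPN3, BNIP3, ATG3 and ATG5, were examined in the breast muscle of broilers that differed in feed efficiency, the weight gained per unit of feed. Their features were taken by platform gene symbol, which gave 4 features, 1 per gene, of 45220 on the array and 4 of 3494 named genes with a value on all 4 arrays. The 4 genes were chosen by their log2 ratios on these same 4 arrays, where an earlier model had called them above the array median, so their own ratios are described here without a test. The RNA came from individually caged males of one broiler line on a corn and soy diet of about 20.5% protein and 3280 kcal per kg, without treatment, whose gain and intake were recorded from 6 to 7 weeks of age. Each of 4 two-colour arrays held RNA of low efficiency in Cy3 and of high efficiency in Cy5, with 0 dye-swapped arrays in the labels, so dye and efficiency cannot be told apart. The series design names 4 high-efficiency and 4 low-efficiency males, but how birds were paired on the arrays, and whether any were pooled, is not stated.

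Calpains are calcium-dependent proteases that cut their substrates at a few places, and calpain 3 is the form made mainly in skeletal muscle, where it is bound to titin in the sarcomere. Loss of calpain 3 causes a limb-girdle muscular dystrophy in humans. Autophagy encloses cytoplasm and organelles in a double membrane and delivers them to lysosomes. A protein related to ubiquitin is attached to the lipid phosphatidylethanolamine for this. ATG3 is the E2-like enzyme that passes the ubiquitin-like protein to the lipid, and ATG5 joined to ATG12 forms part of the complex that directs this step. BNIP3 is a protein of the outer mitochondrial membrane that links damaged mitochondria to the forming autophagosome, and it belongs to the BCL2 family. In muscle these systems act beside the ubiquitin and proteasome pathway in protein turnover.

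All values are log2 ratios between the dyes of an array, with the median of the array's features set to 0. A positive value likely means more transcript in high-efficiency muscle, since high efficiency is in channel 2 and such ratios are usually channel 2 over channel 1. The numerator is not stated, and if it was Cy3 every sign is turned. The deposited array medians lay between -0.58 and -0.19. Levels of single dyes were not analysed here, so neither the abundance of a transcript nor its distance from background is known, and the identity of the tissue could not be checked by marker levels. In whole muscle, a change in the number of cells of a type and a change in RNA per cell cannot be told apart. Over the named genes, ratios of 2 arrays correlated with Pearson's r of 0.20 to 0.31 and Spearman's rho of 0.38 to 0.49 across genes, which are not independent replicates.

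CAPN3 stood highest of the 4 genes. Its ratio was 0.63 on array 1, 0.46 on array 2, 0.42 on array 3 and 0.38 on array 4, a mean of 0.47 ± 0.11 (SD, n = 4) or 1.38-fold. All 4 values were above the array median, array 1 was the highest, and the other 3 lay close together. Of the 3494 named genes, 202 had a higher mean, a rank that follows in part from how CAPN3 was chosen. On the single arrays CAPN3 exceeded between 85.9% and 94.3% of the named genes.

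BNIP3 came next. Its ratio was 0.48 on array 1, 0.36 on array 2, 0.26 on array 3 and 0.29 on array 4, a mean of 0.35 ± 0.10 or 1.27-fold. Array 1 was again the highest and all arrays were positive. CAPN3 lay above BNIP3 on each array by a like amount, with differences of 0.14, 0.10, 0.16 and 0.09 and a mean difference of 0.12 ± 0.03 (SD over arrays).

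The autophagy enzymes ATG3 and ATG5 lay just below. The ratio of ATG3 was 0.28 on array 1, 0.25 on array 2, 0.40 on array 3 and 0.34 on array 4, a mean of 0.32 ± 0.07 or 1.25-fold. Unlike the other 3 genes, it was highest on array 3, and it had the smallest spread of the 4. The ratio of ATG5 was 0.37 on array 1, 0.29 on array 2, 0.34 on array 3 and 0.18 on array 4, a mean of 0.30 ± 0.08 or 1.23-fold. Its value on array 4 was the lowest of all 16 values of the 4 genes.

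By mean ratio the order was CAPN3, BNIP3, ATG3 and ATG5. CAPN3 was above each of the other 3 on all 4 arrays, but its distance to ATG3 (0.15 ± 0.15) was about as large as its spread, with only 0.02 on array 3 and 0.04 on array 4. BNIP3 was above ATG3 on 2 of 4 arrays (0.03 ± 0.15) and above ATG5 on 3 (0.05 ± 0.09), and ATG3 was above ATG5 on 2 (0.02 ± 0.11). These last 3 neighbours did not differ beyond their spread. That all 4 genes were above the array median on every array follows in part from how they were chosen, and 31.1% of all named genes were as well.

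**Figure D1:**
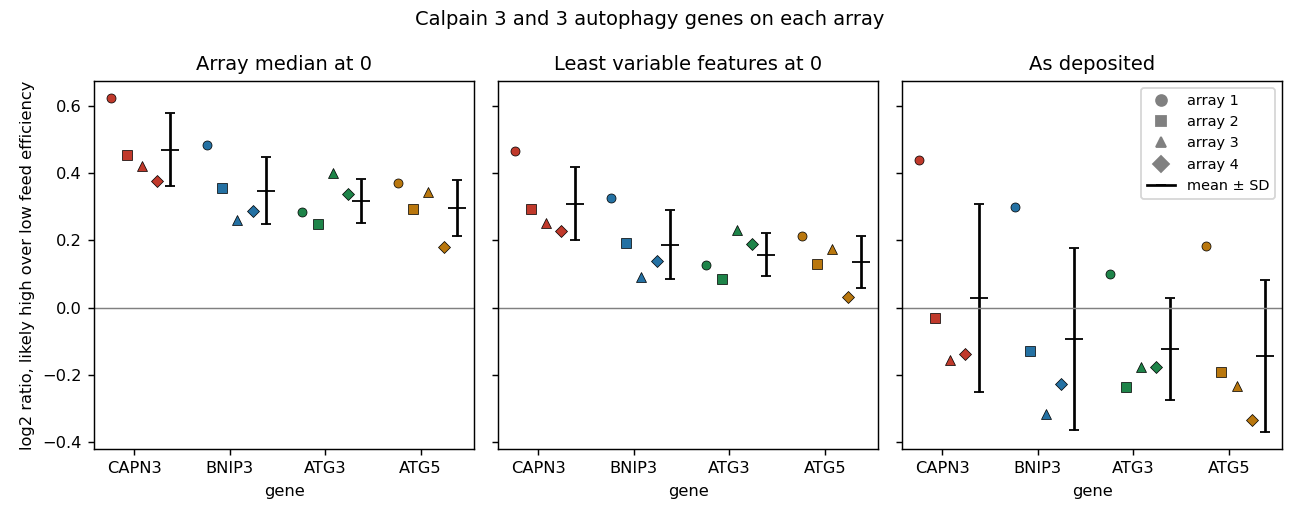
Log2 ratio (vertical axis) of CAPN3, BNIP3, ATG3 and ATG5 on arrays 1 to 4 (symbols), with mean and SD over the 4 arrays (bars), under 3 choices of the zero point. With the array median at 0 all 16 values are above 0, and in the deposited values array 1 is above 0 and arrays 2 to 4 are below 0 for each gene.

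The sign of these ratios rested on the zero point. As deposited, CAPN3 was 0.44 on array 1 and -0.03, -0.16 and -0.14 on arrays 2 to 4, a mean of 0.03 ± 0.28. BNIP3 then had a mean of -0.09 ± 0.27, ATG3 of -0.12 ± 0.15 and ATG5 of -0.14 ± 0.23. Each of the 4 genes was positive on array 1 and negative on the other 3, where the deposited array medians were also lower. With the median of the 10% least variable features at 0, all 16 values stayed positive but were smaller, with means of 0.31 ± 0.11 for CAPN3, 0.19 ± 0.10 for BNIP3, 0.16 ± 0.06 for ATG3 and 0.14 ± 0.08 for ATG5. The median over all named genes was 0.01 with the array median at 0 and -0.15 with the least variable features at 0, and the order of the 4 means is the same under each zero point, which moves all genes alike. The ratios are therefore differences from the bulk of the array and not from a known unchanged transcript.

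The rest of the pathway was read from 8 gene lists with 69 measured genes other than the 4. Among them 10 were higher and 2 lower in the limma test at an adjusted p under 0.05, which is 14.5% and 2.9%, against 18.5% higher and 6.10% lower over all 3494 named genes. The median ratio was 0.05, beside 0.01 over all named genes. The share of pathway genes that passed was thus near or below that of the array as a whole. CAPN3 was exceeded by 3 of the 69 genes, BNIP3 by 9, and ATG3 and ATG5 each by 12, which follows in part from how they were chosen. The calls depended most on arrays 2 and 3. Of the 12 genes, 8 kept their call without array 1, 0 without array 2, 0 without array 3 and 3 without array 4. Each of the 12 mean ratios kept its sign without array 2 or array 3. Their limma adjusted p then lay between 0.0718 and 0.149 without array 2 and between 0.0697 and 0.128 without array 3. Of all 3494 named genes, 299 were higher and 105 lower without array 1, and 0 and 4 without array 2. Without array 3 they numbered 0 and 5, and without array 4, 144 and 54. At an unadjusted p under 0.05 with all arrays, 17 of the 69 were higher and 5 lower, where 26.2% and 11.6% of all named genes were. Without array 2 these numbered 12 and 4, against 20.8% and 9.47% of all genes, and without array 3 they numbered 13 and 5, against 20.7% and 9.47%. With an unmoderated one-sample statistic, 11 were higher and 1 lower at an adjusted p under 0.05, against 16.9% and 3.75% of all genes. With the least variable features at 0, 5 pathway genes were higher and 6 lower, where 6.90% and 11.8% of all genes passed, and in the deposited values 0 were higher and 21 lower, where 0.258% and 32.7% passed. Of the 10 higher genes, CALM2, ANXA1, SH3GLB1, NRBF2 and ATP6V1C1 passed with the least variable features at 0 as well. There BCL2 (limma adjusted p = 0.155), BCL2L1 (0.103), CTSV (0.0839), GORASP2 (0.0814) and HMGB1 (0.0526) did not. As deposited, CALM2, ANXA1 and SH3GLB1 were positive without passing and the other 7 were negative, while ANXA2 and MYOT passed as lower under each zero point.

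**Figure D2:**
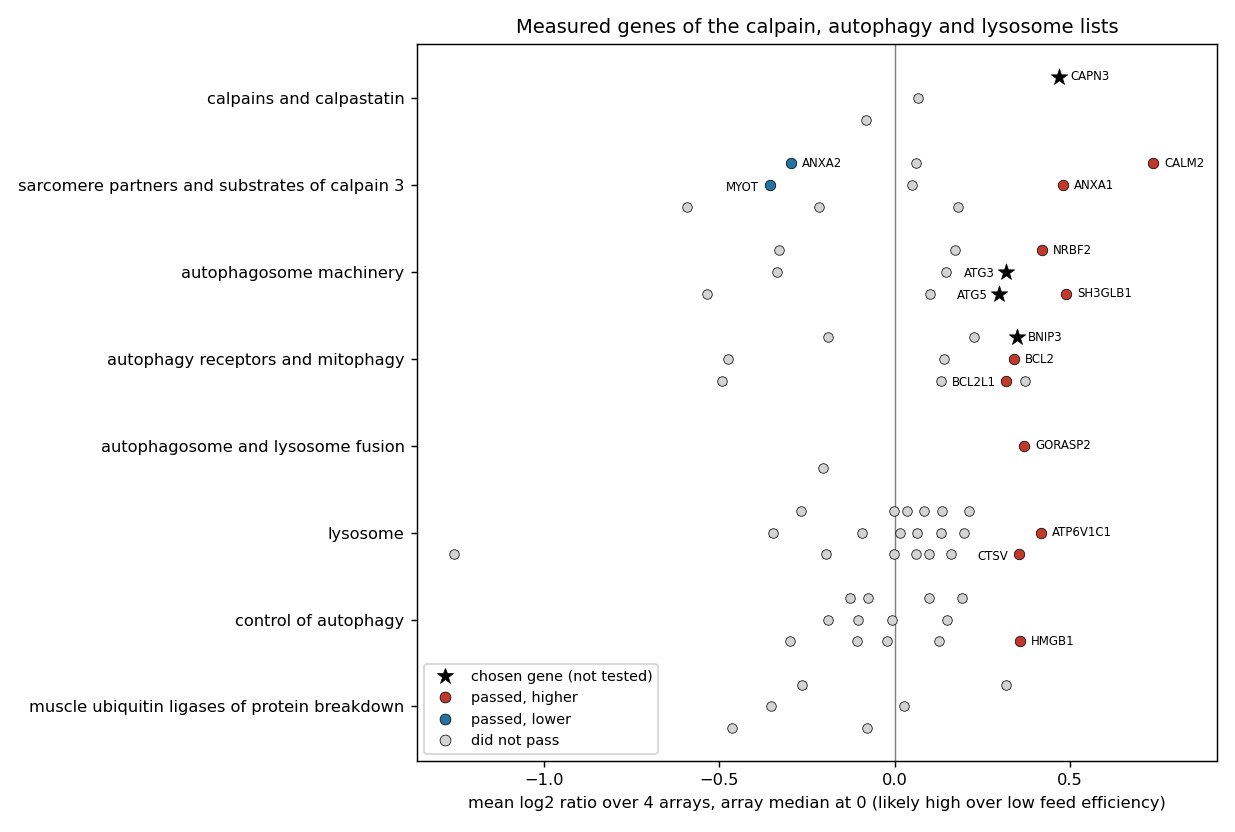
Mean log2 ratio over the 4 arrays with the array median at 0 (horizontal axis) for each measured gene of 8 lists (rows), with the chosen genes as stars and the genes that passed the limma test in colour. Of the 69 other genes 10 passed as higher and 2 as lower, and CALM2 at 0.74 is the highest gene shown.

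The other 2 measured calpains stood near the array median. CAPN1, the catalytic subunit of μ-calpain, was at 0.10, -0.11, 0.05 and 0.22 on arrays 1 to 4 (0.07 ± 0.14, limma adjusted p = 0.532). CAPN2, the catalytic subunit of m-calpain, was at -0.02, 0.02, -0.09 and -0.23 (-0.08 ± 0.11, limma adjusted p = 0.382). Both ubiquitous calpains had arrays on either side of 0. Every CAPN3 value lay above every value of these 2, which follows in part from how CAPN3 was chosen. At an unadjusted p under 0.05, 0 of the 2 passed, against 26.2% higher and 11.6% lower over all named genes. With the unmoderated statistic 0 passed as well, against 16.9% and 3.75%. CAPN2 passed as lower in the deposited values (-0.52, limma adjusted p = 0.0396), where 32.7% of all named genes did.

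The sarcomeric partners and reported substrates of calpain 3, and other proteins tied to it, moved in both directions. Of 9 measured genes 2 rose, 2 fell and 5 did not pass, with a median of 0.05. That is 22.2% each way, against 18.5% higher and 6.10% lower over all named genes. CALM2, which encodes calmodulin, the calcium sensor, was at 0.93, 0.68, 0.73 and 0.62 on arrays 1 to 4 and rose 1.67-fold (0.74 ± 0.13, limma adjusted p = 0.00892). ANXA1, a calcium-dependent membrane-binding annexin, rose 1.39-fold (0.48 ± 0.05, adjusted p = 0.00893). The related annexin ANXA2 fell 1.23-fold (-0.29 ± 0.06, adjusted p = 0.0203). MYOT, myotilin of the Z-disc, was at -0.17, -0.39, -0.36 and -0.51 and fell 1.28-fold (-0.36 ± 0.14, adjusted p = 0.0339), but did not pass with the unmoderated statistic (adjusted p = 0.0646). The 2 annexins thus stood on opposite sides of 0 on every array. TTN, the giant spring protein that holds calpain 3, had 6 features, 3 with a positive and 3 with a negative mean, between -0.19 and 0.51, so its gene mean of 0.06 ± 0.13 joins features that disagree. The ankyrin repeat protein ANKRD1 and CMYA5 had features at a deposited ratio of 1 and gave no value here.

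BNIP3 was set beside other receptors of selective autophagy, proteins of mitochondrial division and members of the BCL2 family. Of 9 such genes, with a median of 0.14, 2 rose (22.2%) and 0 fell, against 18.5% and 6.10% of all named genes. At an unadjusted p under 0.05, 3 were higher and 0 lower, against 26.2% and 11.6% of all named genes. The unmoderated statistic called 1 higher and 0 lower, against 16.9% and 3.75% of all named genes. BCL2L1, the anti-apoptotic BCL-XL, was at 0.35, 0.29, 0.23 and 0.41 (0.32 ± 0.08, 1.25-fold, limma adjusted p = 0.0202). BCL2 itself, which binds BNIP3 and Beclin 1, was at 0.53, 0.40, 0.22 and 0.21 (0.34 ± 0.15, 1.27-fold, adjusted p = 0.0412), but did not pass with values on at least 3 arrays (adjusted p = 0.0547) or with the unmoderated statistic (0.0767). Both were positive on each array. BCL2L13, another outer mitochondrial membrane protein that can act as a mitophagy receptor, did not pass (0.23 ± 0.12, adjusted p = 0.0718). DNM1L, the dynamin-related GTPase that divides mitochondria, was at 0.14 ± 0.13 (adjusted p = 0.209). The receptors TAX1BP1 and NBR1 spread widely, from -0.28 to 1.19 and from -1.14 to 0.93 over the arrays.

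ATG3 and ATG5 belong to the machinery that builds the autophagosome. Of its 8 other measured genes, with a median of 0.12, 2 rose (25%) and 0 fell, against 18.5% and 6.10% of all named genes. At an unadjusted p under 0.05, 3 were higher and 1 lower, against 26.2% and 11.6% of all named genes. The unmoderated statistic also called 2 higher and 0 lower, against 16.9% and 3.75% of all named genes. SH3GLB1, a membrane-bending protein that binds UVRAG in the Beclin 1 complex, was at 0.56, 0.48, 0.50 and 0.42 and rose 1.40-fold (0.49 ± 0.06, limma adjusted p = 0.00893). NRBF2, a subunit of the autophagy-specific phosphatidylinositol 3-kinase complex, was at 0.34, 0.44, 0.43 and 0.47 and rose 1.34-fold (0.42 ± 0.06, adjusted p = 0.011). Their arrays lay closer together than those of CAPN3 or BNIP3. Beclin 1 itself, BECN1, was positive on each array but did not pass (0.15 ± 0.13, adjusted p = 0.197). ATG9A, the lipid scramblase of the early vesicles, was at 0.17 ± 0.09 (adjusted p = 0.0949). ULK1, the kinase that starts autophagy, was at -0.36, -0.30, -0.26 and -1.21 (-0.53 ± 0.45, adjusted p = 0.129), with array 4 far below the others, and passed as lower in the deposited values (adjusted p = 0.0323). ATG10, the E2-like enzyme that joins ATG12 to ATG5, lay between -1.22 and 0.46 and ATG4B, a protease that prepares the ubiquitin-like proteins, between -0.66 and 0.07, each with arrays on both sides of 0.

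Downstream of the autophagosome, the lysosome digests what is delivered to it. In the lysosome list, with a median of 0.06, 2 of 20 rose (10%) and 0 fell, against 18.5% and 6.10% of all named genes. At an unadjusted p under 0.05, 6 were higher and 0 lower, against 26.2% and 11.6% of all named genes. The unmoderated statistic called 4 higher and 0 lower, against 16.9% and 3.75% of all named genes. ATP6V1C1, a subunit of the proton pump that acidifies lysosomes, was at 0.49, 0.43, 0.30 and 0.45 (0.42 ± 0.08, 1.34-fold, limma adjusted p = 0.0137). CTSV, a cysteine cathepsin whose platform symbol is CTSL, was at 0.33, 0.26, 0.35 and 0.49 (0.35 ± 0.10, 1.28-fold, adjusted p = 0.0202). The calcium channel of the lysosome MCOLN1 (0.21 ± 0.10, adjusted p = 0.0628) and cystatin C, CST3, an inhibitor of cathepsins (0.20 ± 0.07, adjusted p = 0.0516), were positive on each array and did not pass. CST3 passed as higher with the unmoderated statistic (adjusted p = 0.0481). The lysosomal membrane protein LAMP1 was at 0.06 ± 0.06. Of the 20 genes, 13 had a positive mean, among them the pump subunits ATP6V1E1 (0.16), ATP6V1D (0.14) and ATP6V1B2 (0.13). The pump subunits ATP6V1A (-0.35 ± 0.30) and ATP6V0A1 (-0.27 ± 0.23) and the protease CTSD (-0.19 ± 0.27) had negative means. PSAP had the lowest mean of the 69 pathway genes (-1.26 ± 1.16, limma adjusted p = 0.148). None of these passed. Of 2 measured fusion genes 1 rose (50%) and 0 fell, against 18.5% and 6.10% of all named genes. GORASP2, a Golgi stacking protein that also tethers autophagosomes to lysosomes, rose 1.29-fold (0.37 ± 0.12, limma adjusted p = 0.0233). VPS33A, of the HOPS tethering complex, was at -0.20 ± 0.16 (adjusted p = 0.149). VPS33A passed as lower in the deposited values (adjusted p = 0.0319) and under the zero point of the least variable features (0.0498).

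Among 13 regulators, with a median of -0.02, 1 rose (7.69%) and 0 fell, against 18.5% and 6.10% of all named genes. At an unadjusted p under 0.05, 2 were higher and 1 lower, against 26.2% and 11.6% of all named genes. The unmoderated statistic also called 1 higher and 0 lower, against 16.9% and 3.75% of all named genes. The gene that rose was HMGB1, a chromatin protein that can also bind Beclin 1 in the cytoplasm, at 0.42, 0.29, 0.35 and 0.37 (0.36 ± 0.05, 1.28-fold, limma adjusted p = 0.0133). FOXO1, a transcription factor that induces autophagy and ubiquitin ligase genes in wasting mammalian muscle, was at 0.24, 0.25, 0.21 and 0.06 (0.19 ± 0.09, adjusted p = 0.0723). DEPTOR, an inhibitor bound to the mTOR kinase and named DEPDC6 on the platform, was at -0.54, -0.31, -0.20 and -0.13 (-0.30 ± 0.18, adjusted p = 0.0731). Both kept 1 sign on all arrays without passing, but DEPTOR passed as lower in the deposited values (-0.74, adjusted p = 0.0196) and under the zero point of the least variable features (-0.46, 0.036). HIF1A, which induces BNIP3 under low oxygen in mammalian cells, had 2 features and a mean of -0.13 ± 0.26. The catalytic subunits of the energy-sensing kinase AMPK, PRKAA1 and PRKAA2, were at -0.08 ± 0.24 and -0.10 ± 0.22. Of 6 ubiquitin conjugation genes of muscle protein breakdown 0 passed in either direction, also at an unadjusted p under 0.05 and with the unmoderated statistic. The ligase UBR1 was at 0.32 ± 0.29 (limma adjusted p = 0.158) and SMURF2 at -0.35 ± 0.40 (adjusted p = 0.221). In the deposited values 3 of the 6 passed as lower, among them SMURF2 (-0.79, adjusted p = 0.0493), where 32.7% of all named genes did. The muscle ligases FBXO32 and TRIM63 were listed, but no feature was named by their symbol alone, so they gave no value here.

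**Figure D3:**
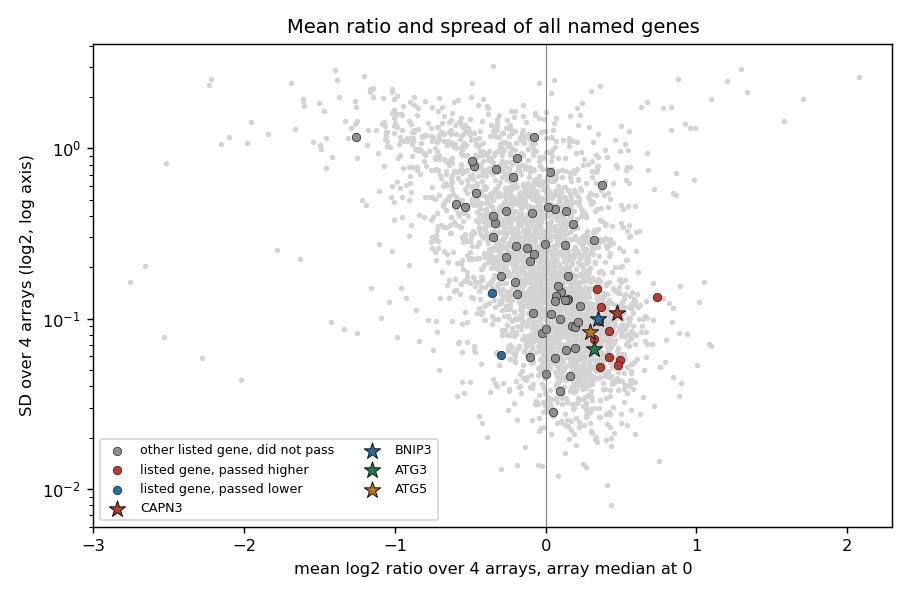
Mean log2 ratio over the 4 arrays (horizontal axis, array median at 0) and SD over the arrays (vertical axis, log scale) of all 3494 named genes, with the chosen genes as stars and the other listed genes as circles. The chosen genes, which were not tested, sit at means of 0.30 to 0.47 and SDs of 0.07 to 0.11, among the listed genes that passed as higher. This position follows in part from how they were chosen.

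The 4 genes had small spreads between arrays. Of all named genes, 14.5% had a smaller SD than ATG3, 22.5% than ATG5, 28.7% than BNIP3 and 32.4% than CAPN3. A small SD is part of what the model that chose them rewards. Several listed genes of similar mean had a far larger spread and did not pass, such as TAX1BP1 (0.37 ± 0.61) and UBR1.

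Likeness between genes was measured as the root mean square difference of the 4 ratios. The named genes nearest to CAPN3 were the splicing factor subunit SF3A3 (0.01), the valine breakdown enzyme ACAD8 (0.03) and the peroxiredoxin PRDX1 (0.04). Nearest to BNIP3 were the phosphatidylcholine carrier PCTP (0.02), the proteasome subunit PSMA1 (0.02) and ANKRD49 (0.03). For ATG3 they were the DNA repair protein XRCC2 (0.02), the regulator of glycolysis PFKFB4 (0.03) and RPS19BP1 (0.03). For ATG5 they were SH3BGRL (0.03), TSC22D1 (0.04) and cystatin B, CSTB (0.04). None of the 4 genes was among the 3 nearest of another: BNIP3 and ATG5 were 0.09 apart, ATG3 and ATG5 0.10, and CAPN3 and ATG3 0.20. Many genes were as close, with 79 within 0.1 of CAPN3, 141 of BNIP3, 164 of ATG3 and 211 of ATG5.

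**Figure D4:**
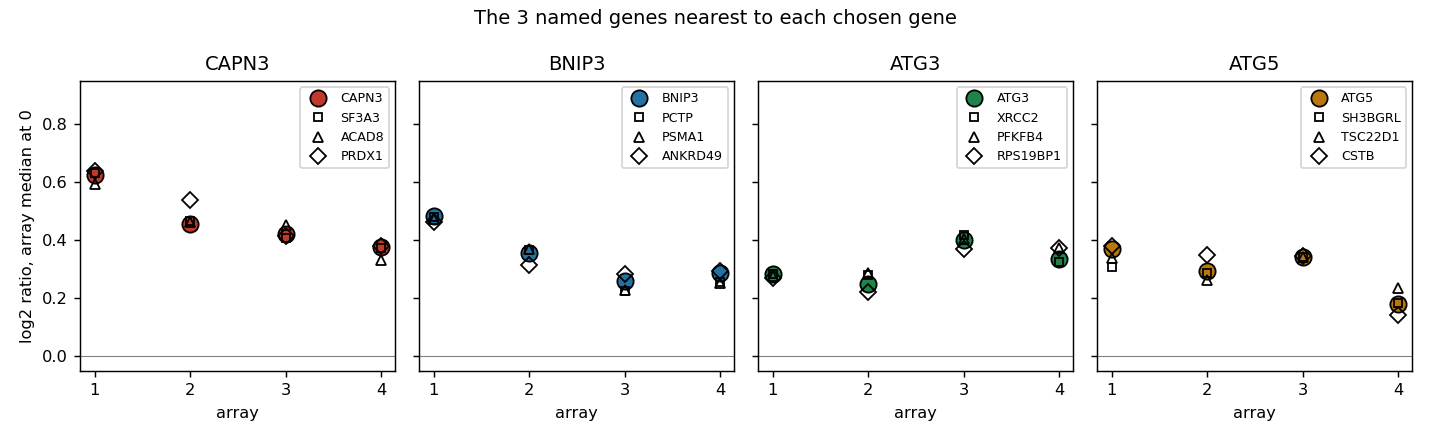
Log2 ratio (vertical axis, array median at 0) on arrays 1 to 4 (horizontal axis) of each chosen gene (filled circle) and of the 3 named genes with the smallest root mean square difference from it (open symbols). The pattern of CAPN3 and SF3A3 differs by 0.01, and array 3 is the highest for ATG3, XRCC2 and PFKFB4.

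Markers of other cells and of fibre types were read in the same comparison, where 18.5% of all named genes were higher and 6.10% lower. At an unadjusted p under 0.05 these shares were 26.2% and 11.6%, and with the unmoderated statistic 16.9% and 3.75%. Of 15 slow and cardiac-type fibre markers 12 were lower and 0 higher in the limma test, with array medians from -1.08 to -0.90 (at an unadjusted p under 0.05, 13 were lower and 1 higher, and the unmoderated statistic called 11 and 0). Of 5 adipocyte markers 3 were higher and 0 lower, the fatty acid carrier FABP4 (0.79 ± 0.06), RBP7 and LPL, with array medians from 0.17 to 0.43. The other 2, ADIPOQ (-0.05 ± 0.07, limma adjusted p = 0.532) and SCD (-0.16 ± 0.48, adjusted p = 0.616), had negative means and did not pass. Of 12 leukocyte markers 4 were lower and 0 higher, with array medians from -0.40 to -0.21, and 1 was lower with the unmoderated statistic. Of 21 fibroblast and matrix markers 3 were higher (14.3%) and 3 lower (14.3%). Of 6 endothelial markers 0 passed (1 lower at an unadjusted p under 0.05 and 0 with the unmoderated statistic). Of 6 erythroid markers 1, HBA1, was higher (16.7%) and 0 lower, with a list median of -0.14. HBE1 (-0.39), HBZ (-0.80), EPB41 (-0.205) and TAL1 (-0.07) had negative means and ALAS1 was at 0.05, all without passing. The gene listed was ALAS2, which the update of symbols turned into ALAS1. The count, share and median of this list therefore include a gene that was not listed as an erythroid marker. Of 3 fast-type fibre markers 1 was higher, TNNT3, and 1 lower, PVALB. TNNT3 joins 2 features with unlike means of 0.75 and 0.08, and PVALB joins 2 at -0.84 and -1.08. With the least variable features at 0, 7 leukocyte markers were lower, and 1 fibroblast and matrix marker was higher and 7 lower. As deposited, 10 leukocyte markers were lower. There fibroblast and matrix markers were 0 higher and 10 lower, adipocyte 0 and 1, erythroid 0 and 3, and fast-type 0 and 2. Of all named genes, 6.90% and 11.8% passed at the first of these zero points and 0.258% and 32.7% at the second. The marker calls with the array median at 0 depended most on arrays 2 and 3 as well. The lower slow and cardiac-type markers numbered 11 without array 1, 3 without array 2, 4 without array 3 and 9 without array 4. The higher adipocyte markers numbered 2, 0, 0 and 2 and the lower leukocyte markers 2, 0, 0 and 2 in the same order, and without array 2 or 3 the other marker lists had 0 calls. Over all 3494 named genes, higher and lower calls numbered 299 and 105, 0 and 4, 0 and 5, and 144 and 54 in that order. Autophagy and lysosome genes are expressed in most cell types, and the part of the markers in the ratios of the 4 genes was not tested.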

How the data were processed

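The deposited table gives log2 ratios of the 2 dyes for 45220 features on 4 arrays, and 0 of its columns were left unused. That the scale is log2 follows from their commonest values, logarithms of ratios of small whole numbers. How the authors corrected background and normalized was not given in the sources used here. The labels' protocols name Trizol extraction and 2 µg of total RNA. Values at the ceiling of 16.61 were treated as missing, and 160 features within 0.005 of a deposited log2 ratio of 0 on 3 or more arrays were removed as likely saturated in both dyes. Between 39376 and 40278 features per array remained, 31722 with a value on all arrays. The number of arrays limits the precision.

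A platform table names 4391 features, and RefSeq (GRCg7b) gave 410 older symbols a current one by a unique synonym. Of the features with a value on all arrays 3712 were named, giving 3494 genes by the mean over features. The median of each array was set to 0. Mean ratios were tested against 0 in limma 3.58.1 (R 4.3.3; lmFit and eBayes), two-sided, with Benjamini-Hochberg adjustment over all 3494 genes at 0.05. These p-values rest on the variation among arrays, which may be technical in part. On simulated data of 3494 genes for this comparison, the fit found 65% of genes changed 1.5-fold and 76% of those changed 2-fold, and 13 calls were false. The simulation drew independent normal noise around 0 with the SD of each gene and changed 200 genes. It held no dye bias, no shift of the zero point and no error shared between genes, so it does not give the reliability of the calls above.

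The 4 genes and the gene lists were chosen with earlier results of these data known. Named genes were the 4 chosen genes, in each list the genes that passed (up to 4 by smallest p) with up to 2 more by p where fewer passed, and the 3 genes nearest to each chosen gene by root mean square difference. BECN1, ATG10, ATG4B, TAX1BP1, NBR1, TTN, LAMP1, HIF1A, PRKAA1, PRKAA2 and the markers were named after their values were seen. So were PSAP, CTSD, ATP6V1A, ATP6V0A1, ATP6V1E1, ATP6V1D and ATP6V1B2. Alternatives changed the centring, scaling, filters, variance model, threshold and arrays used.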

Additional observations from a re-analysis of the deposited data

Results flagged for a closer look

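In 3 of 45 sets of 4 array values that were checked, 1 array lay far from the others by Dixon's criterion, which chance meets in about 1 of 20 sets. ULK1 was at -1.21 on array 4, against -0.36 to -0.26 on the other arrays. ANXA1 was at 0.40 on array 2, against 0.50 to 0.52. The median of the lysosome list was at -0.012 on array 4, against 0.11 to 0.13.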

How the results depend on the processing

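The ratios of the 4 chosen genes kept their sign and moved by less than 1 SD under equal scaling of the arrays, quantile normalization, the median over features, values on at least 3 arrays, ratio 1 features kept, and features in place of genes. Leaving out 1 array gave 0.42 to 0.50 for CAPN3, 0.30 to 0.38 for BNIP3, 0.29 to 0.34 for ATG3 and 0.27 to 0.34 for ATG5. Other zero points moved them by construction, since they shift every gene. As deposited, CAPN3 was at 0.029, and BNIP3 (-0.093), ATG3 (-0.12), ATG5 (-0.14), NRBF2 (-0.021), BCL2 (-0.10), BCL2L1 (-0.12), CTSV (-0.087), ATP6V1C1 (-0.024), GORASP2 (-0.071) and HMGB1 (-0.084) turned negative. So did the list medians of machinery (-0.32), receptors (-0.30), partners (-0.39), lysosome (-0.38), fusion (-0.36) and adipocyte markers (-0.19). Pathway genes were then 0 higher and 21 lower, and all genes 9 and 1142. With the least variable features at 0, CAPN3 was at 0.31, BNIP3 at 0.19, ATG3 at 0.16 and ATG5 at 0.14. The medians of machinery (-0.036), receptors (-0.019), partners (-0.11), lysosome (-0.10) and fusion (-0.076) turned negative, with 5 and 6 pathway genes and 241 and 414 of all genes higher and lower. Pathway genes higher and lower numbered 3 and 0 at an adjusted p under 0.01, 16 and 3 under 0.1, 11 and 1 with the unmoderated statistic, and 4 and 0 as features. All genes numbered 130 and 41, 842 and 344, and 589 and 131 in the same order. As features, 880 were higher and 378 lower of all 31722 with a value on every array, named or not. Leaving out 1 array gave 0 to 6 higher and 0 to 3 lower pathway genes, and 0 to 299 and 4 to 105 of all genes. The median of fast-type markers was 0.41 with ratio 1 features kept, and of partners -0.021 as features. Medians near 0 changed sign when 1 array was left out: they ranged from -0.30 to 0.015 for erythroid markers (positive without array 1), from -0.023 to 0.0043 for calpains (without array 2), from -0.056 to 0.019 for regulators and from -0.047 to 0.034 for endothelial markers (both without array 4). Except for the zero point, the causes were not tested. The ratio of each array compares its 2 dyes, so the test of the 4 ratios against 0 already keeps the pairing within arrays. Signal over background was not analysed here.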
